A study of Mus musculus with 4 samples.

Results

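The olfactory bulb was 1 of 4 regions of the embryonic mouse brain measured on 1 Affymetrix array each, and its array was set against those of the cerebellum, the pontine nucleus and the superior colliculus. All mice were of the ICR strain at embryonic day 17.5, and the labels name no genetic change and no treatment in any of them. Each pool held tissue of several mice, 14 for the olfactory bulb and 13, 15 and 16 for cerebellum, pontine nucleus and superior colliculus in that order. These pool sizes are as labelled, and in the listing of the samples each is 1 larger than the one before, so whether they are true counts is not known. With 1 array per region there is no SD and no p-value. A difference between regions cannot be told apart from a difference between the pooled preparations, and the small number of arrays limits the precision throughout. Of 19938 genes named through the array's annotation, 10908 were compared, namely those whose brightest array exceeded 8.56, the median over all genes.

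The olfactory bulb is the forebrain relay of smell. Axons of sensory neurons in the nose end there on mitral and tufted cells, the glutamatergic projection neurons, which are made early from progenitors of the pallium. Inhibitory granule and periglomerular cells are added later by neuroblasts that migrate in from the ganglionic eminences and their successor, the subventricular zone. Ensheathing glia of neural crest origin wrap the incoming axons. The other regions lie further back. The superior colliculus is part of the midbrain roof, while the cerebellum and the pontine nucleus are hindbrain structures that hold neurons of the rhombic lip. The comparison asks which genes set the bulb apart from those midbrain and hindbrain tissues, as far as the labels name the regions.

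Levels are log2 signals as the authors deposited them, so that 1 log2 unit is a 2-fold difference. A gene was called higher in the bulb when its level there exceeded that of every other region by 1 log2 unit or more. It was called lower when it fell short of every other region by 1 log2 unit or more. The gap is the distance from the bulb to that nearest array. Vomeronasal receptor and beta-defensin genes, 207 in all, served as a background set. Their median level was 5.19 and their 95th percentile 7.32, 95% of their differences between the bulb and the average of the other regions fell in the range of -0.35 to 0.38, and 0 of them passed the size rule. Where the dimmer side of a comparison lay below 7.32, the fold is given as a bound against that level. None of the 207 lay above the level floor, so they give no error rate for the compared genes. The 4 array medians lay between 8.07 and 8.13.

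The size rule called 106 genes higher in the bulb, 0.972% of those compared, and 47 genes lower, 0.431%. The gap had a median of 1.69 log2 units among the higher genes and -1.36 among the lower genes. Among the higher genes 37 had a gap of at least 2 log2 units (4-fold), 0.339% of the genes compared, against 5 of the lower genes, 0.0458%. A gap of at least 3 was reached by 11 higher genes and 1 lower gene. The region nearest to the bulb was the cerebellum for 49 higher genes, the superior colliculus for 45 and the pontine nucleus for 12. Among the lower genes the nearest region was the cerebellum for 19, the superior colliculus for 19 and the pontine nucleus for 9. Across all compared genes the bulb's difference from the average of the other regions had a median of 0.03, and 55.8% of the genes lay above that average. Counts of list members above or below that average are to be read beside this share. No such share was computed for genes highest or lowest in the bulb, so those counts are descriptions only. In 52 of the 106 higher genes the other 3 arrays were all at or below the level floor, so that these genes entered the comparison only through the bulb.

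**Figure D1:**
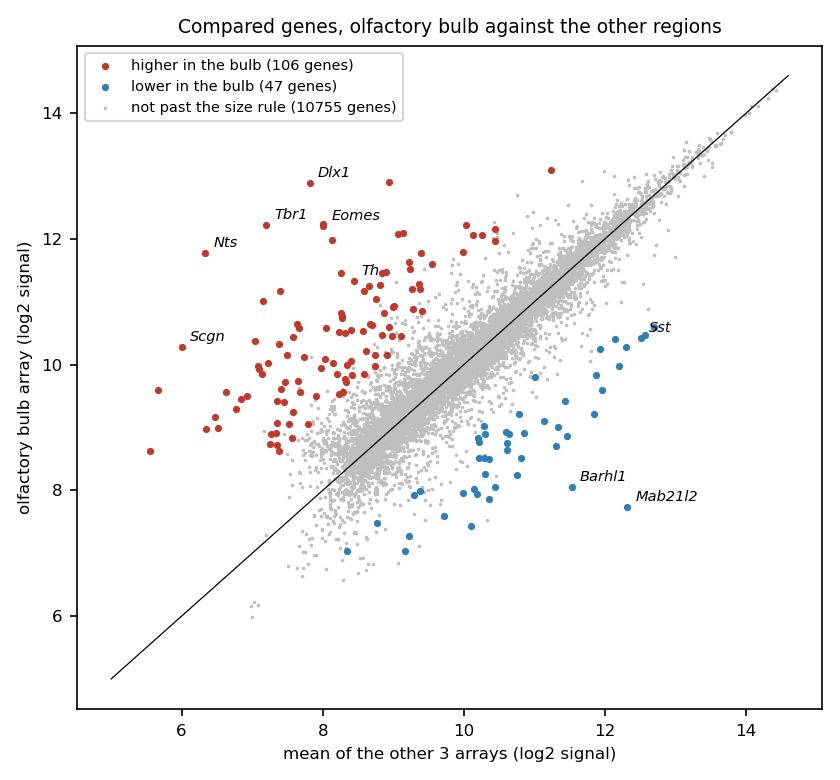
Each point is 1 of 10908 compared genes, with the olfactory bulb level (log2 signal) against the mean of the cerebellum, pontine nucleus and superior colliculus levels (log2 signal). The line marks equal levels, red points are the 106 genes called higher in the bulb and blue points the 47 called lower, and the widest gaps above the line are those of Dlx1 and Nts.

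Each of 5 markers of the bulb was highest there. They were chosen with earlier results of these data known, so they are no independent check of the tissue label. Dlx1, Tbr1 and Scgn were also compared only through the bulb. Dlx1, a homeobox gene of forebrain inhibitory neurons, read 12.89 in the bulb, against 7.84 in cerebellum, 7.79 in pontine nucleus and 7.81 in superior colliculus. Tbr1, a T-box factor of glutamatergic projection neurons, read 12.22 in the bulb, against 7.98, 6.87 and 6.75 in the same order of regions. Scgn, which encodes the calcium sensor secretagogin of bulb interneurons, read 10.28 in the bulb, against 6.16, 5.72 and 6.13. For these 3 genes every other region was more than 4 log2 units below the bulb, and for Tbr1 the other regions spanned 1.23. Th, tyrosine hydroxylase, the rate-limiting enzyme of dopamine synthesis in periglomerular cells, read 11.33 in the bulb, against 8.07 in cerebellum, 9.48 in pontine nucleus and 7.76 in superior colliculus. The pontine nucleus was nearest, at a distance of 1.85. Eomes, also called Tbr2, a T-box factor of intermediate progenitors and mitral cells, read 12.21 in the bulb, against 10.51, 6.66 and 6.85. Eomes was 1.70 above the cerebellum, where it is known from unipolar brush cells, 5.55 above the pontine nucleus and 5.36 above the superior colliculus. In whole tissue, fewer cells of a type and less RNA per cell cannot be told apart, here and in what follows.

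The DNA just before the start of 4 of the higher genes is shown to let their promoters be compared. All are from RefSeq, build GRCm38.p6, and run 5′ to 3′ on the strand of the gene over the 250 bases before its start. The neurotensin gene Nts (chr10:102490419-102490668, minus strand) and the homeobox gene Dlx2 (chr2:71546755-71547004, minus strand) differ in CG dinucleotides, in capitals, of which Nts has 2 and Dlx2 has 24. In Tbr1 (chr2:61804203-61804452, plus strand) capitals mark TAATTA, the core letters bound by many homeodomain factors, which occur at 2 places. In Th (chr7:142899996-142900245, minus strand) capitals mark TGACGTCA, the letters of the cyclic AMP response element.
Nts: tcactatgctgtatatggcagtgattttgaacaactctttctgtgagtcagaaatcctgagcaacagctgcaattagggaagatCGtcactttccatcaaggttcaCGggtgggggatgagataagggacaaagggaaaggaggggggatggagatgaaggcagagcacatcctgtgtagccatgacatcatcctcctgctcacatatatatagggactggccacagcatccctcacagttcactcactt
Dlx2: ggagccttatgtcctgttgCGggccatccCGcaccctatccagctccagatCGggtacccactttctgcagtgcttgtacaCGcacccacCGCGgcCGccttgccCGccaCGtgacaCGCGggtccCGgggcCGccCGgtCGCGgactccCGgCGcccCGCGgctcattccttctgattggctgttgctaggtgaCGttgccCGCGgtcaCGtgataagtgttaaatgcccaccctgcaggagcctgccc
Tbr1: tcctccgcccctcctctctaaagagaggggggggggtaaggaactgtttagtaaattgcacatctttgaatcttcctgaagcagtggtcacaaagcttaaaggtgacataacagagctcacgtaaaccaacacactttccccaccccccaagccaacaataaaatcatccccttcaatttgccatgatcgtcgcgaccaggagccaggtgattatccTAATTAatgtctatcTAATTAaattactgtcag
Th: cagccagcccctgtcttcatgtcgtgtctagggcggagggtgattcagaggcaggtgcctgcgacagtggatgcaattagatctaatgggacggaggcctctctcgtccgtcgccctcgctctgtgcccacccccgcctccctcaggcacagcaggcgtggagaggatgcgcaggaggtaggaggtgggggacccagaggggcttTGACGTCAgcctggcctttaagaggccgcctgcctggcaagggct

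Counted over RefSeq's windows of 250 bases before to 50 after the start, promoters of the higher genes held few CG dinucleotides. The median was 12 in the 80 of 106 higher genes with an entry, 16.5 in the 32 of 47 lower genes with an entry and 22 in the 8750 compared genes with an entry. The middle 50% ran from 7 to 24 in the higher genes, from 13 to 22 in the lower genes and from 15 to 29 in all compared genes. A low median was not particular to the bulb. Genes that passed the same rule upwards in the cerebellum, the pontine nucleus or the superior colliculus had medians of 16, 20 and 14. TAATTA, searched on both strands, was in 5 promoters of higher genes (6.25%), in 3 of lower genes (9.38%) and in 3.15% of all compared genes. Among genes higher in the cerebellum, the pontine nucleus or the superior colliculus, TAATTA was in 5.77%, 10.2% and 5.17%, so its share was not particular to the bulb. Its holders were Tbr1, Sp8, Mef2c, Syt6 and Filip1 among the higher genes, and Barhl1, Uncx and Btbd11 among the lower genes. AGGTGTGA, the letters bound by T-box factors, was in 1 promoter of a higher gene (1.25%), in 0 of the lower genes and in 0.857% of all. TGACGTCA was in 3 promoters of higher genes (3.75%), those of Th, Clstn2 and Fstl4, in 2 of lower genes (6.25%), those of Sst and Uncx, and in 3.74% of all compared genes. These are matches of letters and not sites of binding.

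Transcription factors of inhibitory interneurons were among the genes furthest above the other regions. Dlx homeobox factors specify ventral forebrain GABAergic neurons and Dlx1 and Dlx2 act upstream of Dlx5 and Dlx6. Dlx5 read 11.18 in the bulb, against 7.46 in cerebellum, 7.26 in pontine nucleus and 7.45 in superior colliculus, 13.2-fold above the nearest. Dlx2 read 11.01 in the bulb, against 7.50, 6.86 and 7.11, an 11.4-fold difference from the cerebellum. Dlx6 read 9.43 in the bulb, against 7.28, 7.34 and 7.42, and was 4.03-fold higher. Dlx1 had the widest gap of all 106 genes, 5.05 log2 units or 33.1-fold. In each of these 4 Dlx genes the other regions lay within 0.64 log2 units of each other. Dlx1as, the noncoding transcript from the opposite strand of the Dlx1 and Dlx2 locus, read 10.33 in the bulb, against 7.33, 7.37 and 7.42. Whether its probe set and that of Dlx1 measure separate transcripts was not tested.

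Zinc finger, ETS and AP-2 factors were high as well. Sp8, which is needed for calretinin-positive and other periglomerular cells, read 10.38 in the bulb, against 6.93 in cerebellum, 7.03 in pontine nucleus and 7.15 in superior colliculus, at least 8.34-fold higher. Its relative Sp9 read 10.06 in the bulb, against 8.68, 8.27 and 8.27, with a smaller gap of 1.38. Sall1, a spalt zinc finger factor, read 11.47 in the bulb, against 8.65, 8.71 and 9.34. Etv1, an ETS factor of granule cells and dopaminergic periglomerular cells, read 12.16 in the bulb, against 10.34, 10.51 and 10.46. The other probe set of Etv1 had a gap of 1.90, and the probe set used had 1.65. Tfap2c and Tfap2e, both AP-2 factors, read 9.46 and 10.03 in the bulb, against at most 6.96 and 8.18 elsewhere. In mice Tfap2e is known from developing mitral cells and Tfap2c from progenitors.

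Of 28 interneuron factors listed, 25 were measured and 20 were compared, 5 of them only through the bulb. Higher in the bulb were 8 of the 20, 1 was lower and 11 did not pass. The median difference from the average of the other regions was 1.22 over the 20 and 0.36 over all 25 measured, against 0.03 over all compared genes. Of the 20, 13 were highest and 4 lowest in the bulb. Several members of the list were shared with other regions. Meis2, a TALE homeobox partner of Dlx and Pax6 proteins, read 12.93 in the bulb, against 11.06 in cerebellum, 11.79 in pontine nucleus and 12.16 in superior colliculus. Pax6, a factor of dopaminergic periglomerular cells that cerebellar and pontine neurons also use, read 11.05 in the bulb, against 11.64, 11.76 and 9.58. Prox1 was the member called lower, at 7.44 in the bulb, against 9.19, 11.15 and 9.95. Nr2f1, Nr2f2 and Zic1 were also lowest in the bulb, without passing the rule. Nr2f1 read 8.39 in the bulb, against 10.16, 9.37 and 10.59, and Nr2f2 read 9.82, against 11.11, 10.13 and 11.75. Gsx2, a progenitor factor of the lateral ganglionic eminence, lay below the floor at 7.34 in the bulb, against at most 7.02 elsewhere.

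Genes of GABA synthesis and loading were shared with other regions. Gad1, which encodes a GABA-synthesising enzyme, read 11.51 in the bulb, against 11.03 in cerebellum, 8.92 in pontine nucleus and 11.57 in superior colliculus. Slc32a1, the vesicular GABA transporter, read 9.35 in the bulb, against 9.34, 8.03 and 9.27. Bulb, cerebellum and superior colliculus thus stood together in both, above the pontine nucleus. Among 13 compared genes of inhibitory and dopamine transmission Th was the only one called higher and 0 were lower. The median difference was 0.55, or 0.32 over all 18 measured. It was 0.10 without the cerebellum and 0.045 without the pontine nucleus, so that value rests on those arrays. Other genes of dopamine synthesis and vesicle loading in the list lay below the floor. Ddc, which makes dopamine from its precursor, read 7.35 in the bulb, against 7.19, 7.46 and 7.30. Slc18a2, the vesicular monoamine transporter, read 8.48 in the bulb, against 7.79, 8.47 and 7.70, level with the pontine nucleus.

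**Figure D2:**
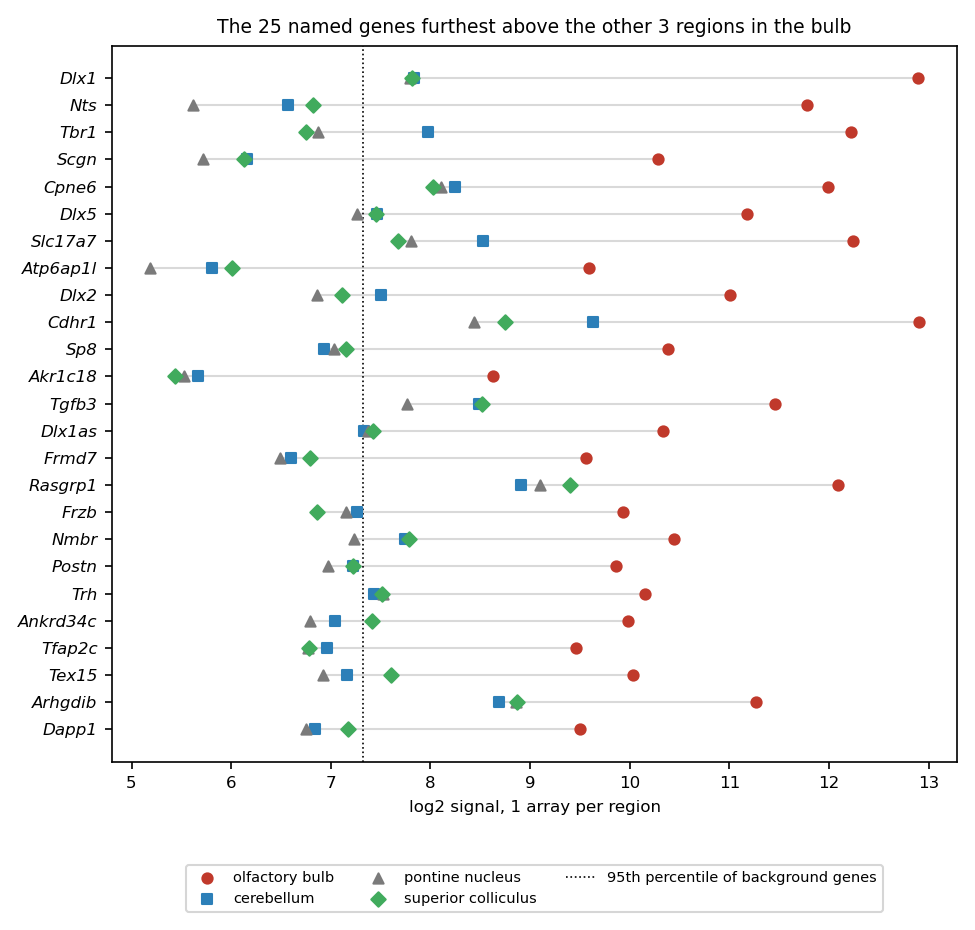
Levels (log2 signal) on the olfactory bulb, cerebellum, pontine nucleus and superior colliculus arrays for the 25 named genes with the widest gap above the other regions, ordered by gap. The dotted line is the 95th percentile of the background genes, 7.32, and in every gene shown the bulb point lies at least 2.33 log2 units to the right of the others.

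Genes of the projection neurons formed a further group. Tbr1 had a gap of 4.24, or 18.9-fold. Slc17a7, the vesicular glutamate transporter VGLUT1 of cortical-type excitatory neurons, read 12.24 in the bulb, against 8.53 in cerebellum, 7.80 in pontine nucleus and 7.67 in superior colliculus, 13.1-fold above the nearest. Its relative Slc17a6, VGLUT2, read 11.75 in the bulb, against 10.50, 11.77 and 12.22, and so was not higher. Cdhr1, a protocadherin-like protein that marks mitral and tufted cells, read 12.90 in the bulb, against 9.63, 8.44 and 8.75, a gap of 3.27. Tbx21, a T-box factor known in the brain mainly from mitral and tufted cells, read 9.73 in the bulb, against 7.42, 7.52 and 7.45. The other 3 regions lay within 0.10 of each other for Tbx21. Fezf2, a zinc finger factor of subcortical projection neurons and forebrain progenitors, read 9.74 in the bulb, against 7.72, 7.56 and 7.67. Neurod6, a bHLH factor of pallial glutamatergic neurons, read 11.28 in the bulb, against 9.47, 9.95 and 8.68. Mef2c, an activity-regulated factor of neuronal differentiation, read 11.52 in the bulb, against 10.10, 8.84 and 8.79.

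Of 20 listed mitral and tufted cell factors, 17 were compared, 3 of them only through the bulb. Of the 17, 6 were higher, 1 was lower and 10 did not pass, and 12 had their highest level in the bulb. The median difference was 1.51 over the 17, and 1.49 over the 18 measured. Zfpm2, a Gata cofactor known from deep cortical layers, was the lower one, at 8.52 in the bulb, against 9.77, 11.85 and 10.82. Among genes listed for the function of these cells, 4 of 15 compared were higher and 0 lower, 3 of the 15 only through the bulb. Their median difference was 0.73 over the 15 and 0.55 over all 17 measured. Reln, the secreted migration signal reelin made by mitral cells and by cerebellar granule cells, read 13.08 in the bulb, against 12.24 in cerebellum, 11.96 in pontine nucleus and 11.78 in superior colliculus. It was highest in the bulb but did not reach the size rule.

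Genes of general telencephalic identity were partly shared with the superior colliculus. Of 14 compared, 2 were higher in the bulb, Fezf2 and Dmrta1, 0 were lower and 9 were highest there. The median difference was 0.96 over the 14 and 0.47 over all 18 measured, and both higher genes were compared only through the bulb. Dmrta1, a DM-domain factor of pallial progenitors, read 9.51 in the bulb, against 8.0, 8.13 and 7.59. Emx1, a homeobox gene of the dorsal telencephalon, read 9.84 in the bulb, against 8.91, 8.60 and 8.80, a gap under the rule. The tailless nuclear receptor gene Nr2e1, a progenitor factor, read 9.53 in the bulb, against 7.17, 7.13 and 8.84, nearest to the superior colliculus.

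Neuropeptide genes included some of the widest gaps. Neurotensin is a modulatory peptide, and its gene Nts read 11.78 in the bulb, against 6.57 in cerebellum, 5.62 in pontine nucleus and 6.82 in superior colliculus. All 3 other regions lay in the range of the background genes, so that the bulb was at least 22.0-fold higher. Trh, which encodes thyrotropin-releasing hormone, read 10.15 in the bulb, against 7.43, 7.52 and 7.51, 6.19-fold above the nearest. Npy, neuropeptide Y, is made by interneurons and by olfactory ensheathing glia, and read 12.08 in the bulb, against 8.92, 8.37 and 9.90. Gcg, the proglucagon gene, read 8.89 in the bulb, against 7.48, 7.18 and 7.15. Sst, somatostatin, went the opposite way, at 10.42 in the bulb, against 12.20, 12.86 and 12.48, 3.43-fold below the nearest. Of 21 compared neuropeptide genes, 3 were higher, 1 was lower and 17 did not pass, and 3 of the 21 were compared only through the bulb. The median difference was 0.46 over the 21, 0.08 over all 34 measured, and 0.82 over the 21 without the superior colliculus.

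Of 23 compared receptors for neuropeptides and growth factors, Nmbr was the higher one and Ntrk3 the lower one, with a median difference of -0.25. Nmbr was compared only through the bulb. Nmbr, the receptor of neuromedin B, read 10.44 in the bulb, against 7.74 in cerebellum, 7.23 in pontine nucleus and 7.78 in superior colliculus. Its ligand gene Nmb read 8.60 in the bulb, against 7.66, 7.91 and 7.68, a gap of under 1 log2 unit. The neurotensin receptor gene Ntsr1 read 9.58 in the bulb, against 7.86, 7.43 and 8.91. The thyrotropin-releasing hormone receptor gene Trhr stayed below the floor, at 8.29 in the bulb, against 6.97, 6.84 and 7.40. Ntrk3, the receptor of neurotrophin 3, read 8.83 in the bulb, against 10.06, 9.91 and 10.62. Outside the list, the orexigenic peptide receptor gene Qrfpr was also called higher, at 9.08 in the bulb, against at most 7.40 elsewhere.

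Secreted signals and their antagonists made up 17 of the 106 higher and 3 of the 47 lower genes. Roles were assigned after the values were seen and to called genes alone, so these counts have no background share. Wnt antagonists were among the higher genes, while Sostdc1, from the same group of signals and antagonists, was lower. Sostdc1 read 7.28 in the bulb, against 8.89 in cerebellum, 9.36 in pontine nucleus and 9.40 in superior colliculus, at least 2.97-fold lower. Frzb, which binds Wnt ligands outside the cell and is also a marker of ensheathing glia, read 9.93 in the bulb, against 7.26 in cerebellum, 7.15 in pontine nucleus and 6.86 in superior colliculus, at least 6.11-fold higher. Sfrp1, of the same family of soluble Frizzled-related proteins, read 11.97 in the bulb, against 10.57, 10.76 and 9.99. The ligand gene Wnt7a read 10.54 in the bulb, against 8.07, 8.99 and 8.66. Ndp, which encodes norrin, a ligand of Frizzled receptors outside the Wnt family, read 10.83 in the bulb, against 9.14, 7.53 and 8.10.

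Genes of the TGF-beta superfamily were next. Tgfb3 read 11.46 in the bulb, against 8.49 in cerebellum, 7.76 in pontine nucleus and 8.52 in superior colliculus, 7.67-fold above the nearest. Bmp5 read 9.40 in the bulb, against 7.61, 7.23 and 7.53. Bmp7 read 10.60 in the bulb, against 9.02, 8.65 and 9.17. Both ligand genes were therefore above all other regions, and so were 2 genes of proteins that bind such ligands outside the cell. Follistatin, from Fst, binds activin, and the gene read 10.56 in the bulb, against 9.0, 7.97 and 8.25. Chrdl1, chordin-like 1, a Bmp antagonist, read 9.73 in the bulb, against 8.49, 8.05 and 8.46. Of 32 compared genes of the retinoid, Wnt, Fgf, Bmp and Shh pathways, 5 were higher and 0 lower. Of the 32, 3 were compared only through the bulb. Above the average of the other regions were 17 and below it 15, where 55.8% of all compared genes lay above. The median difference of the 32 was 0.10, or 0.30 without the cerebellum. Fgf8 and Shh, the patterning signals, did not pass. Fgf8 read 8.57 in the bulb, against 8.94, 8.54 and 8.80, and Shh lay below the floor at 8.17 in the bulb, against at most 8.39.

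Growth factor genes of other families were also called. Igf1, insulin-like growth factor 1, which acts on mitral and other bulb cells, read 11.46 in the bulb, against 8.91 in cerebellum, 7.79 in pontine nucleus and 9.82 in superior colliculus. Igfbp5, a binding protein for that factor, read 13.10 in the bulb, against 12.06, 10.52 and 11.12, and was 1.04 above the cerebellum. Tgfa, a ligand of the EGF receptor, read 11.61 in the bulb, against 9.38, 9.35 and 9.93.

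Several genes of calcium sensing and vesicle release were called. Cpne6, a calcium-dependent phospholipid-binding copine, read 11.99 in the bulb, against 8.25 in cerebellum, 8.11 in pontine nucleus and 8.03 in superior colliculus, 13.4-fold above the nearest. Cpne4, another copine, read 11.26 in the bulb, against 7.84, 8.26 and 9.89, with the superior colliculus nearest. Syt10, a synaptotagmin that in mice controls the release of Igf1 in bulb neurons, read 10.65 in the bulb, against 7.51, 7.07 and 8.34. Rasgrp1, a calcium- and diacylglycerol-regulated activator of Ras, read 12.09 in the bulb, against 8.91, 9.10 and 9.40. Kcnip2, a calcium-binding subunit of A-type potassium channels, read 10.78 in the bulb, against 7.93, 8.09 and 8.79. Of 16 compared calcium-binding protein genes, Scgn, Cpne6 and Cpne4 were higher, Calb1 was lower and 12 did not pass. Of the 16, 3 were compared only through the bulb, Scgn and Cpne6 among them. Members lay 8 above and 8 below the average of the other regions, with a median difference of -0.01, which was -0.38 without the pontine nucleus and 0.32 without the superior colliculus. Calbindin, encoded by Calb1, is abundant in Purkinje cells, and its gene read 7.86 in the bulb, against 11.81, 9.64 and 9.63.

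The lists of synaptic and of channel genes had no member past the rule. Of 37 compared genes of glutamate receptors and synapses, 0 were higher and 0 lower, with a median difference of -0.05. The largest differences in that list were those of Camk2a, the alpha subunit of calcium/calmodulin-dependent kinase II, at 11.46 in the bulb, against 9.29, 9.65 and 10.50, and of the glutamate receptor gene Grm8, at 9.80 in the bulb, against 7.82, 7.71 and 9.71. Of 31 compared potassium and calcium channel genes, 0 were higher and 0 lower, and the median difference was 0.11. Cacng5, an auxiliary subunit gene of glutamate receptors placed in that list, read 10.75 in the bulb, against 9.84, 7.85 and 9.20, and was 0.91 above the cerebellum. The potassium channel gene Kcnk9 read 9.26 in the bulb, against 10.49, 11.52 and 9.97. Outside these lists, the modifier subunit gene Kcnv1 was called higher, at 10.65 in the bulb, against 8.29, 8.17 and 9.57, and so was Cnih3, an auxiliary subunit of AMPA receptors, at 11.64 in the bulb, against 8.83, 8.76 and 10.06.

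Ephrin ligand genes that passed the rule were higher in the bulb, and ephrin receptor genes that passed were lower. Efnb2, a membrane-bound ephrin ligand, read 12.22 in the bulb, against 10.46 in cerebellum, 9.70 in pontine nucleus and 9.94 in superior colliculus. Efnb1 read 10.85 in the bulb, against 9.72, 9.20 and 9.29. Both ligand genes were highest in the bulb. Ephb1, a receptor for B-class ephrins, read 8.93 in the bulb, against 10.26, 10.47 and 11.06, although its other probe set had a gap of only -0.85. Epha7 read 9.83 in the bulb, against 11.57, 11.89 and 12.17. Epha4, which binds ephrins of both classes, read 9.22 in the bulb, against 11.14, 10.39 and 10.81. All 3 receptor genes were lowest in the bulb. Other members of these families in the list, Efna2, Efna3, Efna5, Efnb3, Epha3 and Epha5, did not pass in either direction. Sema3e, a secreted semaphorin, read 9.94 in the bulb, against 7.68, 8.19 and 8.05. Of 32 compared guidance genes of olfactory axons, 1 of them only through the bulb, 3 were higher and 3 lower, and the median difference was -0.04.

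Genes of neuroblast migration were at similar levels in the bulb and elsewhere. Of 31 compared, 0 were higher and 1 was lower, and the median difference was -0.01. Dcx, which encodes the microtubule protein doublecortin of migrating neuroblasts, read 13.07 in the bulb, against 12.87 in cerebellum, 13.26 in pontine nucleus and 13.01 in superior colliculus. Prokr2, the prokineticin receptor that guides neuroblasts into the bulb, read 10.44 in the bulb, against 9.72, 8.62 and 10.01. Tnr, tenascin-R, which in mice draws neuroblasts out of the migratory stream, read 11.24 in the bulb, against 9.33, 10.50 and 10.70. Both were highest in the bulb by less than 1 log2 unit. Slit2, a repellent of neuroblasts and axons, was the lower gene, at 8.51 in the bulb, against 10.32, 9.91 and 10.43.

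Slit2 is the host gene of a microRNA that was called with it. Mir218-1, the hairpin in an intron of Slit2, read 7.48 in the bulb, against 8.79 in cerebellum, 8.79 in pontine nucleus and 8.74 in superior colliculus, 2.39-fold below the nearest. It was the only one of 67 compared microRNA loci called in either direction, and the array's probe set reads the locus and not the mature microRNA alone. Its mature 5′ product is known from hindbrain and spinal motor neurons. The sequence is from RefSeq, build GRCm38.p6, chr5:48223966-48223986, plus strand, with the seed (bases 2 to 8) in capitals.
mmu-miR-218-5p: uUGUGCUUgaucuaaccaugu
The copy Mir218-2 in Slit3 lay below the floor, at 6.66 in the bulb, against 6.81, 6.37 and 6.64. Slit3 itself read 9.05 in the bulb, against 8.97, 9.66 and 8.86, and neither was lower in the bulb.

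**Figure D3:**
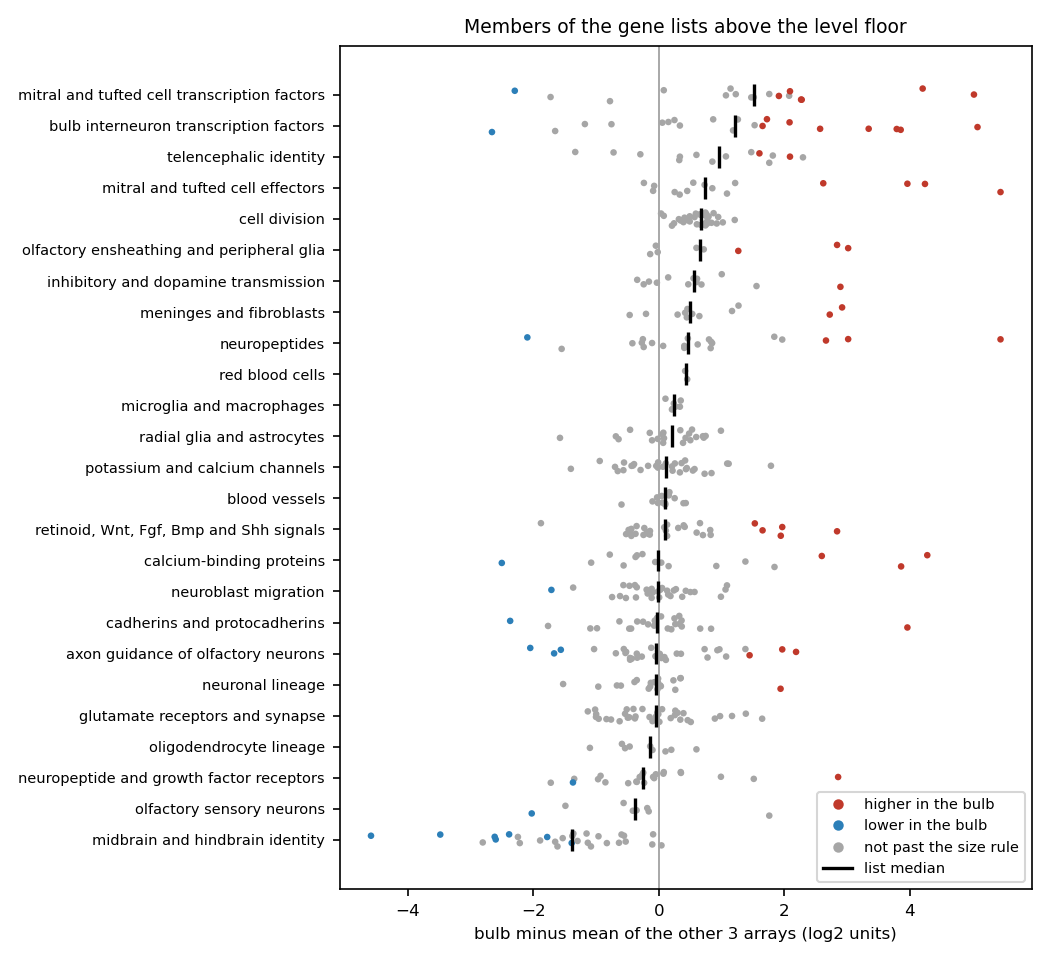
Each point is a compared member of 1 of 25 gene lists, with the difference between the olfactory bulb and the mean of the other 3 arrays (log2 units) on the horizontal axis. Black bars are list medians, from 1.51 for mitral and tufted cell factors to -1.38 for midbrain and hindbrain genes, and red and blue points passed the size rule upwards and downwards.

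Genes of midbrain and hindbrain identity were among those furthest below the other regions. Mab21l2, a developmental regulator of eye and midbrain, read 7.73 in the bulb, against 11.06 in cerebellum, 13.37 in pontine nucleus and 12.51 in superior colliculus, 10.1-fold below the nearest. Barhl1, a homeobox gene of rhombic lip neurons and of the midbrain, read 8.05 in the bulb, against 11.25, 12.50 and 10.84, and was 6.92-fold lower. Esrrg, an orphan nuclear receptor, read 8.87 in the bulb, against 11.48, 11.95 and 10.97. Irx2, of the Iroquois homeobox family that patterns the neural plate behind the forebrain, read 8.70 in the bulb, against 10.72, 12.45 and 10.77. Lhx1, a LIM homeobox gene of Purkinje cells and other hindbrain neurons, read 8.06 in the bulb, against 11.18, 10.10 and 10.05. In these genes the other 3 regions differed by 0.98 to 2.31 log2 units among themselves. That the bulb lay below all of them follows from the size rule by which they were called. Irx1 and Irx5 were called too, at 8.51 and 7.99 in the bulb, against at least 9.73 and 9.20 elsewhere.

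Of 40 listed midbrain and hindbrain genes, 38 were measured and 29 compared. None was higher in the bulb, 7 were lower, and 22 did not pass. Below the average of the other regions were 28 of the 29, where 55.8% of all compared genes lay above it. Of the 29, 19 had their lowest level in the bulb. The median difference was -1.38 over the 29 and -1.11 over all 38 measured. Many members that did not pass were bright in 1 region alone. En2, an engrailed homeobox gene of the isthmus and cerebellum, read 7.26 in the bulb, against 11.47, 6.95 and 7.44. Hoxa2, a hindbrain Hox gene, read 6.85 in the bulb, against 7.71, 12.41 and 7.07. Pou4f1, a POU factor of the tectum, read 6.75 in the bulb, against 7.19, 6.67 and 10.27. In such genes the bulb stood level with the regions that were also dim.

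Zic zinc finger genes, which act in dorsal neural progenitors and granule neurons, were low without being dim. Zic2 read 10.60 in the bulb, against 12.75 in cerebellum, 13.26 in pontine nucleus and 12.09 in superior colliculus. Zic5 read 9.21 in the bulb, against 12.22, 12.40 and 10.91, but its other probe set read 9.18, against 10.58, 10.77 and 9.45, a gap of only -0.27. Zic4 read 8.90 in the bulb, against 10.37, 11.34 and 10.20, and its other probe set, near the background level, had a gap of -0.13. Both probe sets of Zic4 and of Zic5 were lowest in the bulb, but the size rule was met by 1 probe set of each. Zic1 read 12.14 in the bulb, against 12.90, 13.36 and 12.42, and was not called. Ebf1, a helix-loop-helix factor, read 10.28 in the bulb, against 12.62, 12.50 and 11.79.

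The remaining named lower genes belonged to adhesion, transport and RNA regulation. Cdh8, a classical cadherin, read 9.59 in the bulb, against 11.64 in cerebellum, 12.11 in pontine nucleus and 12.12 in superior colliculus. Chl1, a relative of the adhesion molecule L1, read 9.98 in the bulb, against 11.83, 12.41 and 12.38. Of 25 compared cadherin and protocadherin genes Cdhr1 was the higher one and Cdh8 the lower one, and the median difference was -0.03. Nova1, a neuronal splicing regulator, read 10.48 in the bulb, against 12.23, 12.19 and 13.29, and its other probe set also passed. Lxn, which encodes the carboxypeptidase inhibitor latexin, read 8.25 in the bulb, against 11.22, 10.24 and 10.82. Ptchd1, a Patched-domain protein of neurons, read 9.01 in the bulb, against 11.19, 11.83 and 10.99, and its other probe set had a gap of -2.43. Glra1, the alpha 1 subunit of the glycine receptor of brainstem and spinal cord, read 7.03 in the bulb, against 8.12, 8.79 and 8.11. Since 7.03 lay below 7.32, the fold of Glra1 is at least 1.73. Acetylcholine receptor genes also appeared, with the muscarinic Chrm3 at 7.94 in the bulb, against 9.02, 11.18 and 10.36, and the nicotinic Chrna4 at 9.42 in the bulb, against 10.76, 11.70 and 11.84.

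**Figure D4:**
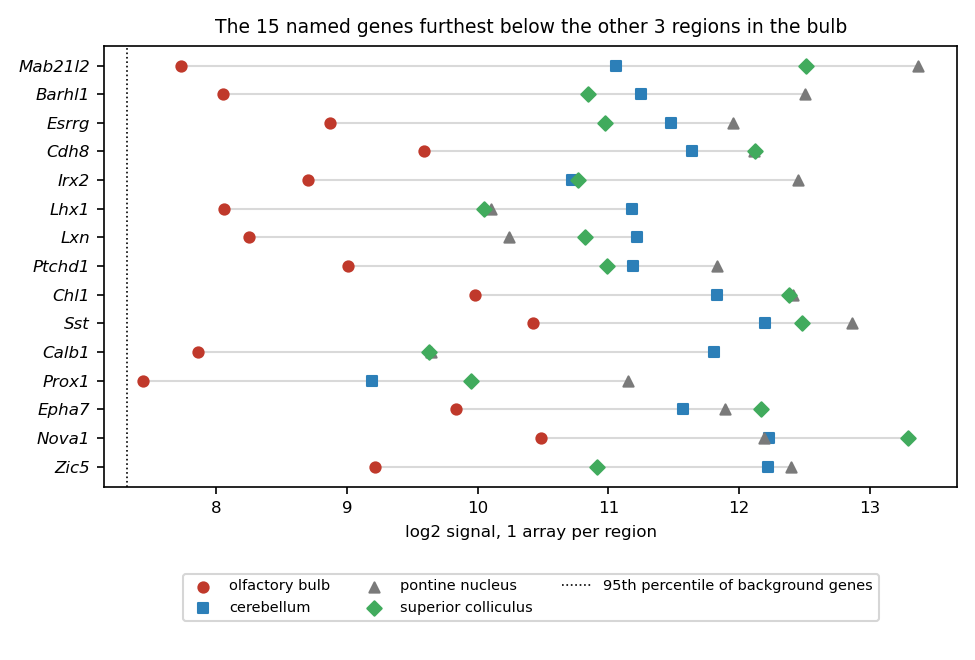
Levels (log2 signal) on the olfactory bulb, cerebellum, pontine nucleus and superior colliculus arrays for the 15 named genes with the widest gap below the other regions, ordered by gap. The bulb point is leftmost in each gene, and the pontine nucleus is highest in several, with Mab21l2 at 13.37 there.

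Many genes high in the bulb were held under the rule by 1 region alone. Against the cerebellum 268 genes were at least 1 log2 unit higher in the bulb (2.46% of those compared) and 225 lower (2.06%). The numbers were 567 (5.2%) and 280 (2.57%) against the pontine nucleus, and 321 (2.94%) and 298 (2.73%) against the superior colliculus. Without the cerebellum in the comparison 124 further genes would have been called higher, and in 69 of these the cerebellum was above the bulb. The superior colliculus alone held back 89, of which 15 were above the bulb there, and the pontine nucleus 12, of which 1 was. The genes named below are the leading ones of each group, and were chosen after their values were seen.

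Genes shared with the cerebellum included those of neuronal differentiation and division. Neurod1, a bHLH factor of glutamatergic neurons and cerebellar granule cells, read 11.52 in the bulb, against 12.30 in cerebellum, 6.85 in pontine nucleus and 9.18 in superior colliculus. Ndnf, a secreted neuronal factor, read 10.95 in the bulb, against 11.13, 7.21 and 8.11. Kitl, the ligand of the receptor Kit, read 12.10 in the bulb, against 11.75, 9.82 and 9.83. The bulb and the cerebellum lay within 1 log2 unit of each other in all 3, and both were above the remaining regions. Neurog2, a proneural factor of glutamatergic progenitors, read 9.94 in the bulb, against 9.01, 7.91 and 8.36. Cdca7, a cell division gene, read 10.98 in the bulb, against 10.84, 8.90 and 8.34. All 34 compared genes of the cell division list were above the average of the other regions in the bulb, against 55.8% of all compared genes. The list had a median difference of 0.67, yet 0 passed the rule and Ccnd2 alone was highest in the bulb. That median was 1.19 without the cerebellum, 0.46 without the pontine nucleus and 0.34 without the superior colliculus. Ccnd2, cyclin D2, read 12.18 in the bulb, against 11.96, 10.73 and 10.22.

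Genes shared with the superior colliculus included several of neuronal signalling. Emx2, a homeobox gene of the telencephalon that is also expressed outside it, read 10.13 in the bulb, against 6.70 in cerebellum, 6.99 in pontine nucleus and 9.81 in superior colliculus. Calb2, calretinin, a calcium-binding protein of periglomerular and granule cells, read 12.27 in the bulb, against 10.28, 9.45 and 11.55. Gabra5, a GABA-A receptor subunit, read 12.03 in the bulb, against 9.84, 9.74 and 11.84. Bulb and superior colliculus were the bright pair in each. Tac1, the substance P precursor, read 9.63 in the bulb, against 7.64, 5.19 and 10.16, higher still in the superior colliculus. The group shared with the pontine nucleus was small and held Tshz1, a zinc finger factor that in mice directs the radial migration of bulb interneurons. Tshz1 read 11.95 in the bulb, against 10.06, 11.52 and 9.69. Rasgrf1, an exchange factor for Ras, read 10.29 in the bulb, against 7.63, 10.14 and 8.56.

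**Figure D5:**
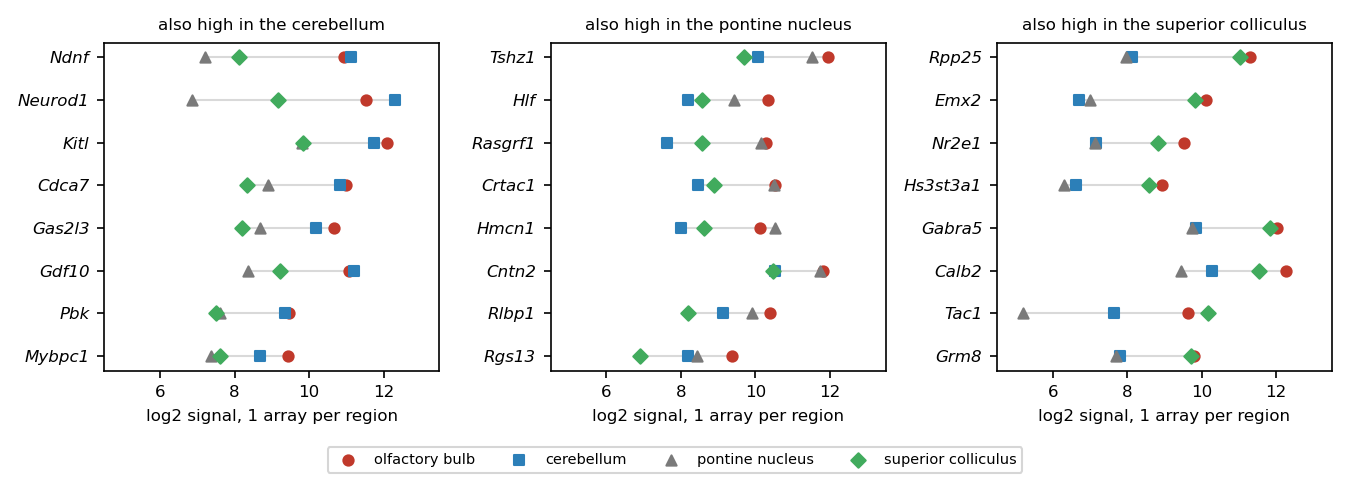
Levels (log2 signal) on the olfactory bulb, cerebellum, pontine nucleus and superior colliculus arrays for 8 genes in each panel that were at least 1 log2 unit above all but 1 of the other regions. In each panel the region named in the title lies less than 1 log2 unit below the bulb, or above it, as for Neurod1, at 11.52 in the bulb against 12.30 in the cerebellum.

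Markers of other cells that a dissected bulb could hold were examined in the same way. Of 15 measured genes of olfactory ensheathing and peripheral glia, 8 were compared, 2 of them only through the bulb. Npy, Frzb and Erbb3 were the 3 called higher, and Frzb and Erbb3 were those compared only through the bulb. Of the 8, 0 were lower and 5 did not pass. Members lay 5 above and 3 below the average of the other regions, and 1 was lowest in the bulb. The median difference was 0.66 over the 8 and 0.53 over all 15. Erbb3, the neuregulin receptor of neural crest glia, read 8.83 in the bulb, against 7.59 in cerebellum, 7.46 in pontine nucleus and 7.64 in superior colliculus. Sox10, the factor of neural crest glia and oligodendrocytes, read 9.34 in the bulb, against 8.70, 8.85 and 8.67. Foxd3, a neural crest factor, fell just under the floor at 8.53 in the bulb, against 7.42, 7.46 and 7.19. The mean level over all 15 was 9.19 in the bulb, against 8.50, 8.33 and 8.35. The oligodendrocyte list, by contrast, had 0 genes past the rule among 9 compared. Its median difference was -0.14 over the 9 and -0.28 over all 14 measured.

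Meningeal and fibroblast genes moved with the bulb in part. Of 20 measured, 12 were compared, 3 of them only through the bulb. Of the 12, 2 were higher and 9 were highest in the bulb. Above the average of the other regions were 10 of the 12, against 55.8% of all compared genes. The median difference was 0.50 over the 12 and 0.47 over all 20. Dcn, the matrix proteoglycan decorin, read 10.59 in the bulb, against 7.08 in cerebellum, 7.28 in pontine nucleus and 8.65 in superior colliculus. Postn, the matrix protein periostin, read 9.86 in the bulb, against 7.22, 6.97 and 7.22, at least 5.82-fold higher, and was compared only through the bulb. The collagen gene Col1a1 read 9.07 in the bulb, against 8.70, 8.56 and 8.58, and Col3a1 read 8.68 in the bulb, against 8.43, 8.18 and 8.17. Foxc1, a meningeal factor, lay below the floor at 7.44 in the bulb, against 7.40, 7.28 and 7.44. The mean level over the 20 was 8.64 in the bulb, against 8.03, 7.83 and 8.06. The part of such cells in the levels of Dcn, Postn, Frzb, Bmp5 and Bmp7 was not tested.

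Axons of olfactory sensory neurons reach the bulb, but their cell bodies lie in the nose. Of 19 measured genes of these neurons 8 were compared, 0 were higher and Ebf1 was lower. The median difference was -0.38 over the 8 and -0.12 over all 19. Omp, the olfactory marker protein gene, read 7.92 in the bulb, against 8.06 in cerebellum, 8.28 in pontine nucleus and 7.90 in superior colliculus, below the floor in all. Blood vessel, red blood cell, microglia and radial glia lists each had 0 genes past the rule in either direction. Their median differences were 0.10 over 13 vessel genes, 0.44 over 2 red blood cell genes, 0.24 over 7 microglia genes and 0.21 over 22 radial glia genes. Over all measured genes these medians were 0.04 for 20, 0.06 for 6, 0.22 for 15 and 0.08 for 24, in the same order. Of 20 compared general neuronal genes Thy1 was the higher one, at 11.21 in the bulb, against 9.52, 8.78 and 9.51, and the list median was -0.05.

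Some called genes are neighbours in the genome. Neighbours were read from the order of the compared genes in the RefSeq table of assembly GRCm38.p6. Called genes next to each other, or 1 compared gene apart, are given as a description, with no background share. The higher groups were Dlx1, Dlx1as and Dlx2; Dlx6 and Dlx5 with Dync1i1; Tfap2c and Bmp7; Maob and Ndp; Prune2 and Gcnt1; Fezf2 and Synpr; and Tbr1 and Gcg. The lower groups were Irx1 with Irx2, Zic5 and Zic2 with Clybl, and Slit2 with Mir218-1. Zic5 belongs there through 1 probe set, since its other probe set had a gap of only -0.27. Dync1i1, which encodes a dynein intermediate chain, read 11.18 in the bulb, against 8.56 in cerebellum, 8.04 in pontine nucleus and 9.14 in superior colliculus. It shared its direction with Dlx6 and Dlx5, and 1 compared gene lay between it and Dlx6. Maob, monoamine oxidase B, read 9.62 in the bulb, against 7.47, 7.11 and 7.64, and its neighbour Ndp was higher by 1.69. Clybl, a mitochondrial enzyme gene beside Zic5, read 8.03 in the bulb, against 10.04, 10.84 and 9.55.

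Other genes among the 25 with the widest gaps have roles less tied to the bulb. Atp6ap1l, a relative of a proton pump accessory subunit, read 9.59 in the bulb, against 5.81 in cerebellum, 5.19 in pontine nucleus and 6.01 in superior colliculus, at least 4.82-fold higher. Akr1c18, a hydroxysteroid dehydrogenase that inactivates progesterone, read 8.63 in the bulb, against 5.67, 5.53 and 5.44, just above the floor. Frmd7, a FERM-domain protein known in the retina for direction-selective circuits, read 9.56 in the bulb, against 6.60, 6.49 and 6.79. For all 3 the other regions lay in the range of the background genes. Arhgdib read 11.27 in the bulb, against 8.69, 8.86 and 8.87. Ankrd34c read 9.98 in the bulb, against at most 7.41 elsewhere, Tex15 read 10.03 against at most 7.60, and Dapp1, a phosphoinositide-binding adaptor, read 9.50 against at most 7.17.

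Genes near the limits of the rule were as follows. Just inside the size rule on the high side were Hs3st1 with a gap of 1.03 and Clstn2 with 1.04, and just outside were Fjx1 with 0.99 and Deptor with 0.98. On the low side Gsg1l at -1.01 and Dach1 at -1.04 were inside, and Ptpn5 and Aqp4, both at -0.99, outside. At the level floor Filip1 with a highest level of 8.62 and Akr1c18 with 8.63 were inside. Mkx and Foxd3, both at 8.53, were past the size rule but outside the floor. In all, 12 higher genes and 1 lower gene were left out in this way.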

How the data were processed

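Per the labels' protocols, RNA came from Trizol and RNeasy extraction, sense-strand cDNA from Ambion's WT Expression Kit and the biotin label from Affymetrix's WT Terminal Labeling Kit. Arrays were processed in Affymetrix Expression Console, per the submitters' processing notes. The version, summarisation, normalization and build were not given in the sources used here. As deposited by the authors, values were log2 signals, 1 for each probe set on each array, made with Expression Console and rounded to 2 decimals. The log2 scale was inferred from the range, 2.43 to 14.57. The array medians lay close together, and the values were used as deposited. Scaling between arrays can remove a difference in total RNA, and weak signals flatten towards background, which compresses folds.

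Of 35556 probe sets, 21789 had 1 gene symbol in the array's annotation of 2016, 1621 had several and 12146 had no entry there and are unnamed. Where a gene had several, as 999 did, the probe set of highest mean was used. Genes were compared if their brightest array exceeded the 50th percentile, 8.56. No test was possible with 1 array per region, so the size rule stands in its place. Simulated arrays with planted differences wider than the rule served only to check that the code finds them. Their noise was assumed, so they give no error rate for these data.

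The comparison, the 5 markers, the 25 gene lists and the rules were chosen with earlier results of these data known, and support nothing independently. Named were 25 genes by widest gap on the high side and 15 on the low side, leaving out predicted genes, small RNAs, receptor and immune gene families and pseudogenes. From each list, members past the rule (up to 6) were named, or up to 2 with the largest difference where none passed, together with the genes nearest the limits. Other named genes, the roles, the microRNA and the motif TGACGTCA were chosen after their values were seen. The alternatives were 3 other level floors, quantile normalization, averaged probe sets, a size rule of 2 log2 units, the mean of the other arrays as comparator, and each other array left out. Python 3.11.15 with NumPy 2.4.6, pandas 2.3.3 and Matplotlib 3.10.9 was used.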

Additional observations from a re-analysis of the deposited data

How the results depend on the processing

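Against 106 genes called higher and 47 called lower, 4 kinds of setting moved a count by over 1.5 times. With the level floor at the 75th percentile of all genes 65 genes were higher. With a difference of 2 log2 units 37 were higher and 5 lower. With the mean of the other 3 arrays as comparator 255 were higher and 168 lower. Leaving out an array from the comparison gave 230 higher and 89 lower without the cerebellum, 118 and 88 without the pontine nucleus, and 195 and 77 without the superior colliculus. Each of these settings asks an easier or a stricter question by its construction, and every gene called in the report stayed called when a region was left out. No level floor gave 118 higher and 48 lower, the floor at the background genes' 95th percentile 115 and 48, quantile normalization 105 and 48, and averaged probe sets 106 and 45. Of the genes called in the report, quantile normalization shared 105 higher and 46 lower, and averaged probe sets 106 and 44. Of the alternatives run on the 42 named genes, only quantile normalization and averaged probe sets could narrow a gap, since the mean comparator and the omission of an array can only keep or widen it. Under these 2, 83 of 84 gaps stayed at 1 log2 unit or more, among genes mostly chosen for wide gaps. The exception was Zic5, at -0.985 with averaged probe sets. List medians already use the mean of the other arrays, so that alternative gave them no further value, and 0 medians of at least 0.2 in size changed sign under the alternatives run. List medians near 0 did change sign when an array was left out, such as potassium and calcium channels, at -0.10 without the cerebellum. The radial glia median was 0.43 without the cerebellum, and that of olfactory sensory neuron genes -0.11 without the superior colliculus. The red blood cell and microglia lists had no member above the floor at the 75th percentile, so they have no value there. No paired analysis was possible because each region had 1 array. Signal over background limits the 14 higher genes whose other arrays, and the 3 lower genes whose bulb level, lay below 7.32, for which folds are bounds.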

Other observations

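Probe sets outside the named genes also differed between the bulb and the other arrays. Of the 12146 probe sets that the annotation does not list, 17 were at least 1 log2 unit higher and 43 at least 1 log2 unit lower in the bulb than in all other regions, taken with no level floor. Of the 1621 probe sets with several symbols 0 were higher and 0 lower.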
